A study of Homo sapiens with 12 samples.

Results

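The machinery that copies DNA in S phase was followed through 44 genes, a list chosen by name as replication genes known to be driven by E2F, out of 23459 genes counted by RNA sequencing. All 44 were found, and all 44 were among the 14775 genes with enough reads to be tested. The 12 libraries came from MCF10A, a line of human breast epithelium that does not form tumours. In every group the cells carried a doxycycline-inducible YAP5SA allele (iYAP5SA), a form of the Hippo pathway coactivator YAP that the Hippo kinases cannot inactivate. A second vector, delivered by infection, either expressed JUN or was empty, and treatment was with 100 ng/ml doxycycline (Dox) or with ethanol alone, its solvent (EtOH). The 4 groups of 3 libraries are called vector EtOH and vector Dox for the empty vector, and JUN EtOH and JUN Dox for the JUN vector. All 12 libraries thus came from infected cells, and none from cells that received Dox without the allele, so that effects of Dox and of YAP5SA cannot be told apart. The study's methods describe the 3 libraries of a group as biological replicates, and the p-values measure the spread between them.

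Before S phase, the origin recognition complex, CDC6 and CDT1 load rings of MCM2 to MCM7 onto DNA, and CDC45 and the GINS complex later turn each ring into a moving helicase. Polymerases, the sliding clamp PCNA and its loader RFC then copy the strands. Most of these genes are transcribed late in G1 under E2F factors, which the retinoblastoma protein holds back until cyclin-dependent kinases release them. Their mRNA therefore follows the share of cells that are cycling, and in bulk samples fewer cells in S phase and less RNA per cell cannot be told apart.

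The promoters of these genes were searched for E2F words. Because the list was chosen as E2F-driven genes, the share that holds one describes the choice and is not a finding. A promoter here is the 300 bases from 250 before the transcription start to the end of the first 50 transcribed bases, taken from RefSeq on GRCh38.p14, and 40 of the 44 genes had an entry. GINS4, MCM4, MCM5 and CCNE2 had none. The words TTTCCCGC, TTTCGCGC, TTTGCCGC and TTTGGCGC were searched on both strands as E2F motifs. They were found in 22 of the 40 promoters (55.0%), in 5.32% of the 11491 promoters of tested genes and in 3.33% of all 27305 promoters. The 22 promoters held 29 matches, of which 19 had their first base within the 100 bases before the start. Some of these run across the start, as in CLSPN and MCM3. Words on opposite strands can overlap, TTTCGCGC with itself in MCM2 and TTTGGCGC with TTTCGCGC in MCM6, and each counts as a separate match. A match is a description of the letters and not a measured site. The next lines give 150 bases around the start for CDC6 and UHRF1, which rose most on YAP5SA induction, and for MCM2 and E2F2, which were among the genes lowest with the JUN vector. Capitals mark the E2F word. The stretches are chr17:40287759-40287908 (plus strand), chr19:4909381-4909530 (plus strand), chr3:127598291-127598440 (plus strand) and chr1:23531204-23531353 (minus strand) on GRCh38.p14, each written 5′ to 3′ along the gene, from 120 bases before the start base to 29 after it.
CDC6: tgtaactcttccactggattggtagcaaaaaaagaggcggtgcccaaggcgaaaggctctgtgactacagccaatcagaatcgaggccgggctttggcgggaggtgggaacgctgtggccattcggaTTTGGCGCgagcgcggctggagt
UHRF1: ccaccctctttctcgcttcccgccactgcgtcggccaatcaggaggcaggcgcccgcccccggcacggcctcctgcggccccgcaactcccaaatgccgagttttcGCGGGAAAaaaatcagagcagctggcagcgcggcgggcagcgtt
MCM2: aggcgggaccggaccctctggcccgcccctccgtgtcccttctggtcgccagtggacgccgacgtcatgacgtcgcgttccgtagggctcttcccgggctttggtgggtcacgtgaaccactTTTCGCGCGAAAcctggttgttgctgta
E2F2: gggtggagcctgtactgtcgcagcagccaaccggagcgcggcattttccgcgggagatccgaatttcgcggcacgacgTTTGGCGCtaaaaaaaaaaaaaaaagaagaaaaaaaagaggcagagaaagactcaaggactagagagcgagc

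The 4 genes were picked among those whose promoter holds an E2F word, so that all 4 carry one was fixed by the choice. ORC6 and RRM2, which also rose strongly on induction, and RFC2, which fell with the JUN vector, held none. In UHRF1 the word lies on the opposite strand, and in MCM2 a pair of overlapping words forms a palindrome. Over all 40 promoters the median log2 induction in vector cells was 0.39 for the 22 genes with an E2F word and 0.35 for the 18 without, and the median log2 change with the JUN vector in uninduced cells was -0.30 and -0.34. The CCAAT word was present in 55.0% of the 40 promoters and 36.5% of those of tested genes. TTTGAA, the CHR word typical of mitotic genes, was present in 1 of the 40 promoters and in 20 of 29 promoters of the mitosis genes listed for comparison. The AP-1 words TGACTCA and TGAGTCA were in none of the 40 promoters and in 3.42% of those of tested genes. GGAATG, the word bound by the TEAD partners of YAP, was in 5 of the 40 (12.5%) and in 10.8% of those of tested genes.

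Total counts ranged from 18594867 to 28993487 per library, and the 44 genes together took 0.304% to 0.511% of them. JUN itself, the gene of the vector, averaged 47.6 ± 10.5 CPM (counts scaled to library size, SD, n = 3) in vector EtOH and 1279 ± 187 CPM in JUN EtOH, and was also 3.98-fold higher in vector Dox than in vector EtOH, at 189.7 ± 4.15 CPM (edgeR quasi-likelihood test, adjusted p = 3.09e-07). YAP1, whose reads include those of the allele where the sequences are shared, averaged 179 ± 10.5 CPM in vector EtOH and 237 ± 31.5 CPM in vector Dox (adjusted p = 0.0819). In JUN cells YAP1 overlapped between EtOH (249, 243 and 211 CPM) and Dox (365, 267 and 208 CPM). Its log2 value there was 0.26 ± 0.16 SE (adjusted p = 0.308), and JUN Dox replicate 3 lay below every JUN EtOH library. Against vector EtOH, YAP1 was 1.31-fold in JUN EtOH without induction (adjusted p = 0.0755) and 1.32-fold in vector Dox. None of these YAP1 differences passed the edgeR test, so its count does not establish the induction in either background. The basal keratin KRT5 stood at 4615 ± 92.8 CPM in vector EtOH, and no read was counted for CDKN2A or CDKN2B, which MCF10A cells have lost. Summed over 7 markers, the basal level ranged from 7452 to 7867 CPM in vector EtOH libraries and from 5799 to 7393 CPM in JUN EtOH, but with Dox from 3822 to 4996 CPM in vector and from 3527 to 5619 CPM in JUN cells. This sum, much of it KRT5, moved with induction and was lower in every JUN EtOH library than in vector EtOH. Gene by gene, the 7 markers did not fall together with JUN. Their median log2 change was 0.04 without induction (range -0.755 to 1.2) and 0.47 with it (-0.412 to 2.07). The part of these markers in the results was not tested. Luminal markers summed to 30.7 to 41.2 CPM in vector and 24.3 to 32.2 CPM in JUN libraries, and fibroblast markers to 104.7 to 159.6 CPM in all. Endothelial markers summed to 1.71 to 2.10 CPM in vector EtOH and 0.10 to 0.73 CPM in the other groups. Immune markers summed to 17.0 to 29.9 CPM in vector and 50.8 to 93.4 CPM in JUN libraries. The immune sum moved with JUN, as the luminal sum did in both treatments. Only 1 of the 4 immune markers had enough reads to be tested (log2 1.55 with JUN without induction and 1.78 with it). Of the 5 luminal markers 3 were tested, and they did not move together. Their log2 values with JUN ran from -0.447 to 0.365 without induction and from -0.649 to 0.353 with it. The part of these sets was not tested either. The defining genes ESR1 and PTPRC were below 1 CPM in every library.

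In uninduced cells the replication genes spanned a wide range of levels. Per kilobase of exon, PCNA was the highest at 124 CPM in vector EtOH, ahead of the thymidine kinase TK1 at 73.3, the flap endonuclease FEN1 at 60.2 and MCM7 at 53.1. The lowest were the polymerase subunits POLA2 at 2.26 and POLE2 at 2.27 CPM per kilobase and the cyclin CCNE2 at 3.31. The exon length joins the exons of all annotated transcripts, so the order depends on the annotation. POLA2 has 12006 exon bases and stood at 27.1 CPM in vector EtOH, against 2942 bases and 6.68 CPM for POLE2. TYMS shares 39.9% of its exon bases with ENOSF1 and CCNE2 shares 1629 exon bases with INTS8, both on the opposite strand, so their levels are uncertain in counts that may not use strand.

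The first comparison asked what YAP5SA induction does without added JUN. In vector cells, 25 of the 44 genes rose with Dox and none fell, where 15.6% of all genes tested rose and 14.4% fell. The median log2 fold change of the 44 genes was 0.35 (a 1.28-fold rise), with a range from -0.16 to 1.05, and that of all genes tested was 0.0072. In 35 of the 44 genes every vector Dox library lay above every vector EtOH library, as in 22.6% of all genes tested. CDC6, UHRF1, ORC6 and RRM2 had the largest changes, while 2 of the 8 polymerase, primase and lagging strand genes passed the test.

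CDC6 (chr17:38444131-38460909 on GRCh37, plus strand), the ATPase that helps load the MCM rings, rose the most. Its level was 59.2, 48.6 and 51.7 CPM in the 3 vector EtOH libraries and 117, 112 and 101 CPM in the 3 vector Dox libraries. The groups lay far apart, a 2.07-fold rise (log2 1.05 ± 0.098 SE, edgeR quasi-likelihood test with Benjamini-Hochberg adjustment, adjusted p = 1.45e-06). UHRF1 (chr19:4903092-4962165), which carries DNA methylation through replication, stood at 58.0, 53.0 and 57.2 CPM in vector EtOH and at 139, 112 and 86.7 CPM in vector Dox. It rose 2.01-fold (log2 1.01 ± 0.18 SE, adjusted p = 0.000777), and its induced libraries spread from 86.7 to 139 CPM without reaching the controls. ORC6 (chr16:46723555-46732306), a subunit of the origin recognition complex, stood at 17.6, 17.5 and 15.03 CPM in vector EtOH and at 40.3, 26.0 and 27.4 CPM in vector Dox. Replicate 1 was the highest of the induced libraries, and the change was 1.87-fold (log2 0.90 ± 0.20 SE, adjusted p = 0.00347).

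RRM2 (chr2:10260825-10351851), the small subunit of ribonucleotide reductase that makes deoxynucleotides, stood at 255, 242 and 231 CPM in vector EtOH and at 481, 422 and 409.6 CPM in vector Dox. No library overlapped, and the rise was 1.80-fold (log2 0.85 ± 0.10 SE, adjusted p = 1.86e-05). E2F1 (chr20:32263283-32274191), the activating E2F factor, stood at 31.6, 27.6 and 27.8 CPM in vector EtOH and at 47.9, 41.8 and 39.0 CPM in vector Dox, a 1.48-fold rise (log2 0.56 ± 0.11 SE, adjusted p = 0.00139). CCNE1 (chr19:30302898-30315219), the cyclin that drives entry into S phase, stood at 14.0, 12.7 and 10.9 CPM in vector EtOH and at 21.2, 16.6 and 17.1 CPM in vector Dox, a 1.46-fold rise (log2 0.55 ± 0.14 SE, adjusted p = 0.00653). Both genes were apart between the groups, with smaller gaps than CDC6 or RRM2. PCNA (chr20:5095599-5107272) stood at 177, 176 and 169.9 CPM in vector EtOH and at 273, 198 and 221 CPM in vector Dox. It rose 1.33-fold (log2 0.41 ± 0.11 SE, adjusted p = 0.0103), a value that came to 0.26 (adjusted p = 0.0349) without vector Dox replicate 1. MCM2 (chr3:127317253-127341279) stood at 205, 192 and 204 CPM in vector EtOH and at 217, 227 and 223 CPM in vector Dox. Its groups did not overlap, but its log2 difference of 0.15 ± 0.12 SE did not pass the test (adjusted p = 0.366).

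By role, 3 of 5 loading genes rose, with GMNN, the inhibitor of CDT1, at a log2 change of 0.42, while CDT1 (0.04) and ORC1 (-0.09) did not pass the test. Among 12 helicase genes 7 rose, led by MCM10 (0.66), GINS1 (0.65), CDC45 (0.65) and GINS2 (0.59), which join at firing, followed by GINS3 (0.49), MCM7 (0.46) and MCM6 (0.27). The other MCM ring subunits, MCM2 to MCM5, were between 0.15 and 0.24 and did not pass. Of the clamp and its loader, PCNA and RFC3 (0.57) rose. Of 8 genes of the polymerases, the primase and lagging strand processing, FEN1 (0.54) and POLA2 (0.43) rose, and POLA1 (0.01), POLE (0.07) and the ligase LIG1 (-0.04) were near 0. Thymidylate synthase TYMS (0.37) rose with RRM2. All 4 chromatin genes rose, with the histone mRNA binding protein SLBP at 0.62 and the chromatin assembly subunits CHAF1B and CHAF1A at 0.48 and 0.28. Of 6 control and checkpoint genes 5 rose, among them the checkpoint adaptor CLSPN (0.77), CCNE2 (0.54) and the ubiquitin ligase substrate receptor DTL (0.31). The exception was E2F2, at 20.95, 22.1 and 19.2 CPM in vector EtOH and 16.3, 21.5 and 18.1 CPM in vector Dox, whose libraries overlapped (log2 -0.16 ± 0.13 SE, adjusted p = 0.374).

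Of these 25 calls, 18 held when any 1 of the 12 libraries was left out. The other 7, MCM6, GINS3, POLA2, TYMS, CCNE2, CHAF1A and DTL, were each lost in at least 2 such fits, CHAF1A in 9 and MCM6 in 5. GINS3 came to a log2 change of 0.27 (adjusted p = 0.0998) TYMS to 0.21 (adjusted p = 0.11) and POLA2 to 0.29 (adjusted p = 0.0531) without vector Dox replicate 1.

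**Figure D1:**
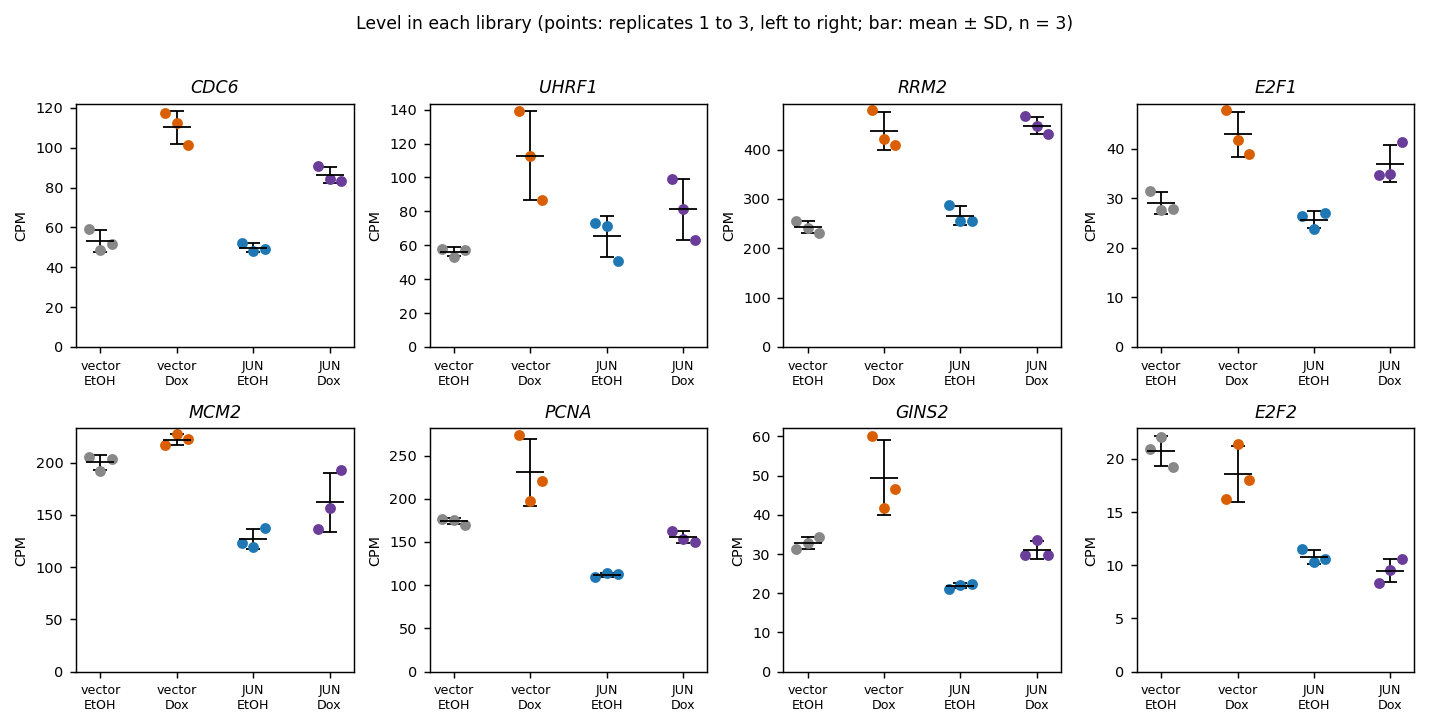
Levels of 8 replication genes in CPM (vertical axes, from 0) in the 3 libraries of each of the 4 groups, with points for replicates 1 to 3 and bars for the mean ± SD. CDC6, RRM2 and E2F1 in the upper row are higher in both Dox groups. UHRF1 is higher in vector Dox but overlaps between JUN EtOH and JUN Dox. MCM2, PCNA, GINS2 and E2F2 in the lower row are lower in the JUN groups than in the vector groups given the same treatment. GINS2, for example, is at 32.8 CPM in vector EtOH and 21.9 CPM in JUN EtOH. PCNA and GINS2 are also higher with Dox in both backgrounds, and CDC6 is lower in JUN Dox than in vector Dox.

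The second comparison asked what the JUN vector does in cells without induction. Here 22 of the 44 genes fell and none rose, where 18.9% of all genes tested fell and 20.1% rose. The median log2 fold change of the 44 genes was -0.34 (0.793-fold) with a range from -0.94 to 0.22, against 0.00056 for all genes tested. In 29 of the 44 genes every JUN EtOH library lay below every vector EtOH library, as in 28.9% of all genes tested. This comparison shares the vector EtOH libraries with the first one.

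E2F2 (chr1:23832930-23857725) fell the most. It stood at 11.5, 10.3 and 10.6 CPM in JUN EtOH, all below the lowest vector EtOH library at 19.2 CPM, and its fold was 0.52 (log2 -0.94 ± 0.13 SE, edgeR adjusted p = 5.95e-05). CDT1 (chr16:88870197-88875666), which brings the MCM rings to the origin, stood at 112, 111 and 116 CPM in vector EtOH and at 57.9, 59.3 and 76.6 CPM in JUN EtOH. Its fold was 0.573 (log2 -0.80 ± 0.17 SE, adjusted p = 0.00172). RFC2 (chr7:73645829-73668788), a clamp loader subunit, stood at 44.7, 55.4 and 48.6 CPM in vector EtOH and at 30.3, 31.6 and 30.6 CPM in JUN EtOH. The JUN EtOH libraries of RFC2 lay close together and below all controls (log2 -0.69 ± 0.13 SE, adjusted p = 0.000889). MCM2 stood at 124, 119 and 138 CPM in JUN EtOH, against at least 192 CPM in every vector EtOH library (log2 -0.66 ± 0.12 SE, adjusted p = 0.000491). PCNA stood at 109, 114 and 113 CPM in JUN EtOH, with the lowest vector EtOH library at 169.9 CPM (log2 -0.64 ± 0.11 SE, adjusted p = 0.000396). These 5 genes were thus separated by more than the spread of either group.

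CDC6 stood at 52.2, 47.9 and 49.4 CPM in JUN EtOH, overlapping vector EtOH (log2 -0.09 ± 0.098 SE, adjusted p = 0.465). RRM2 stood at 288, 256 and 255 CPM in JUN EtOH and overlapped vector EtOH (log2 0.13 ± 0.10 SE, adjusted p = 0.314). E2F1 stood at 26.4, 23.8 and 26.9 CPM in JUN EtOH, just below vector EtOH in every library (log2 -0.17 ± 0.11 SE, adjusted p = 0.229). None of these 3 genes, which rose on induction, passed the test with JUN. CCNE1 stood at 14.96, 13.5 and 11.9 CPM in JUN EtOH (log2 0.11 ± 0.14 SE, adjusted p = 0.564), UHRF1 at 73.3, 71.2 and 51.0 CPM (0.22 ± 0.18 SE, adjusted p = 0.366) and ORC6 at 17.0, 21.2 and 14.3 CPM (0.07 ± 0.20 SE, adjusted p = 0.82).

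By role, 8 of 12 helicase genes fell. All 6 MCM ring subunits were among them, from -0.66 for MCM2 over -0.52 for MCM7 and -0.42 for MCM6 and MCM5 to -0.40 for MCM4 and -0.39 for MCM3, together with GINS2 (-0.58) and CDC45 (-0.40). MCM10 (-0.22), GINS1 (-0.13), GINS3 (0.03) and GINS4 (-0.18) did not pass the test. Of the clamp and its loader 4 of 5 fell, with RFC5 at -0.44 and RFC4 at -0.40 beside PCNA and RFC2. Of the polymerase, primase and lagging strand genes 4 of 8 fell, namely the catalytic subunits POLA1 (-0.61) and POLD1 (-0.44), LIG1 (-0.43) and FEN1 (-0.40). With a correction for GC content POLD1 came to -0.19 and its call was lost (adjusted p = 0.0678), and TK1 came to -0.27 (adjusted p = 0.038). CDT1, GMNN (-0.39) and ORC1 (-0.38) fell among the loading genes, and TK1 (-0.45), CHAF1B (-0.31) and E2F2 were the single members of their roles that fell.

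With any 1 library left out, 15 of the 22 calls held. The other 7 were MCM5, CDC45, ORC1, LIG1, TK1, CHAF1B and GMNN, of which CHAF1B was lost in 8 fits. CDC45 came to -0.31 (adjusted p = 0.0915) without JUN EtOH replicate 1 and to -0.37 (adjusted p = 0.0525) without vector EtOH replicate 1.

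**Figure D2:**
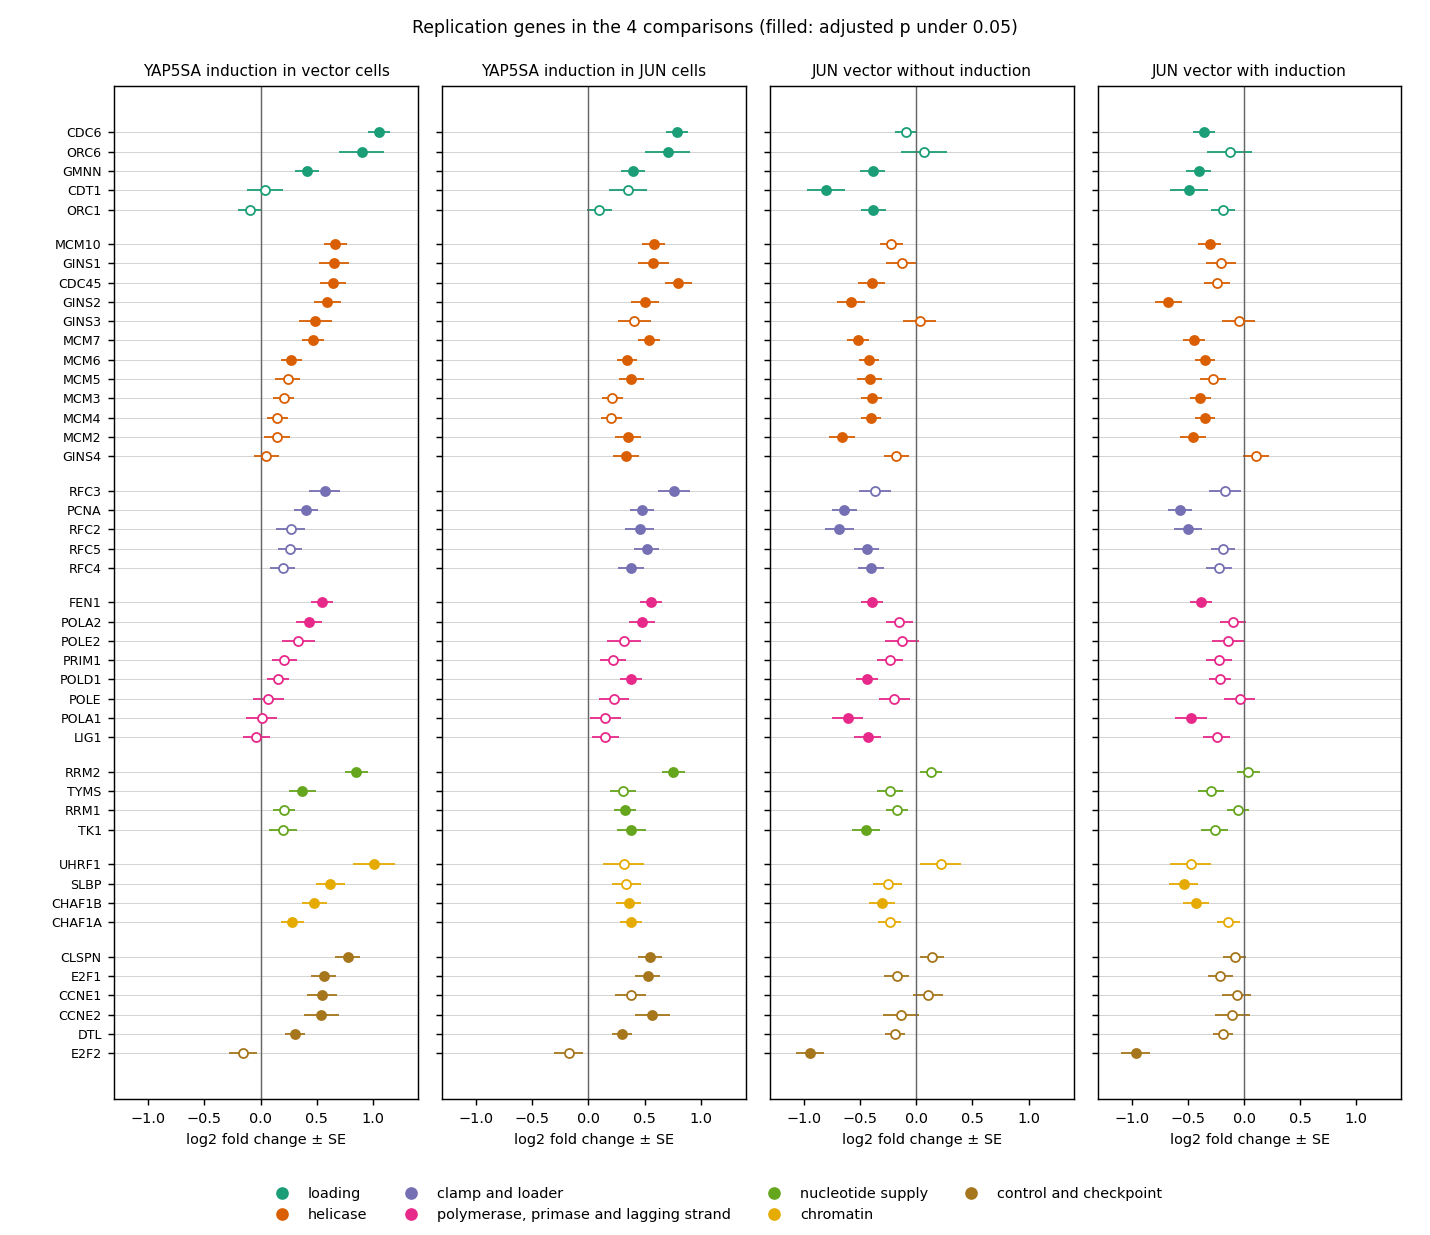
Log2 fold change ± SE (horizontal axes) of the 44 replication genes in the 4 comparisons, ordered by role, with filled points for an adjusted p under 0.05 in the edgeR quasi-likelihood test and open points for the rest. Filled points lie to the right of 0 in both induction panels (25 and 29 genes) and to the left in both JUN panels (22 and 17 genes), and the rows of all 6 MCM ring subunits are filled in the panel for JUN without induction.

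The third comparison asked whether the same genes respond to YAP5SA when JUN is already high. In JUN cells 29 of the 44 genes rose with Dox and none fell, where 11.2% of all genes tested rose and 10.3% fell. Their median log2 fold change was 0.38 (1.301-fold) with a range from -0.18 to 0.80, against 0.0032 for all genes tested. In 35 of the 44 genes every JUN Dox library lay above every JUN EtOH library, as in 20.4% of all genes tested. The JUN Dox libraries differed in how their counts followed the GC content of genes. Over the 44 genes, the deviation from the group mean had a Pearson correlation with exon GC of -0.54 in replicate 1 and 0.57 in replicate 3, across genes that are not independent. Over the same genes it ran from -0.42 in replicate 1 to 0.52 in replicate 2 of vector Dox. In JUN EtOH it ran from -0.34 in replicate 2 to 0.44 in replicate 3, so other comparisons carry this limit too. With a correction for GC content 29 genes rose in JUN cells.

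CDC45 (chr22:19466980-19508135), which joins the MCM ring in the active helicase, stood at 11.8, 15.4 and 13.3 CPM in JUN EtOH and at 25.8, 23.9 and 21.04 CPM in JUN Dox. It had the largest rise of the 44 genes in JUN cells, at 1.74-fold (log2 0.80 ± 0.12 SE, edgeR adjusted p = 0.000206). In vector cells CDC45 stood at 18.5, 17.9 and 16.9 CPM with EtOH and at 29.2, 27.3 and 26.9 CPM with Dox. CDC6 stood at 90.7, 84.3 and 83.3 CPM in JUN Dox, all above its JUN EtOH libraries, a 1.73-fold rise (log2 0.79 ± 0.098 SE, adjusted p = 4.57e-05). RFC3 (chr13:34392206-34540695), a clamp loader subunit, stood at 30.5, 28.9 and 26.3 CPM in JUN EtOH and at 60.8, 44.5 and 40.6 CPM in JUN Dox (log2 0.76 ± 0.14 SE, adjusted p = 0.00143). Replicate 1 was the highest JUN Dox library for both CDC6 and RFC3. RRM2 stood at 468, 447 and 432 CPM in JUN Dox, a 1.69-fold rise with no overlap (log2 0.75 ± 0.10 SE, adjusted p = 9.7e-05).

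PCNA stood at 163, 153 and 150.4 CPM in JUN Dox, above every JUN EtOH library (log2 0.48 ± 0.11 SE, adjusted p = 0.00573) and below every vector EtOH library. E2F1 stood at 34.7, 34.9 and 41.4 CPM in JUN Dox (log2 0.53 ± 0.11 SE, adjusted p = 0.00358). MCM2 stood at 137, 157 and 193 CPM in JUN Dox, and its lowest library overlapped JUN EtOH. Its rise (log2 0.35 ± 0.12 SE, adjusted p = 0.0402) was lost in 8 of the 12 fits that left out 1 library, and came to 0.21 without JUN Dox replicate 3. CCNE1 stood at 17.9, 16.2 and 18.4 CPM in JUN Dox, above JUN EtOH in every library, but did not pass the test (log2 0.38 ± 0.14 SE, adjusted p = 0.0605). ORC6 stood at 37.3, 25.5 and 23.1 CPM in JUN Dox and passed (log2 0.71 ± 0.20 SE, adjusted p = 0.0208), with a value of 0.47 (adjusted p = 0.0966) without JUN Dox replicate 1. The ORC6 call was also lost without JUN EtOH replicate 1 (adjusted p = 0.0679) or 3 (adjusted p = 0.089).

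By role, 9 of 12 helicase genes rose, among them MCM10 (0.58), GINS1 (0.58), MCM7 (0.54) and GINS2 (0.50). All 5 genes of the clamp and its loader rose, with RFC5 at 0.52, RFC2 at 0.46 and RFC4 at 0.38. The call of RFC2 was lost without any single JUN EtOH replicate and without JUN Dox replicate 2 or 3, with log2 values from 0.392 to 0.474. RFC4 was lost without any single one of the 6 JUN libraries, with values from 0.339 to 0.405. FEN1 (0.56), POLA2 (0.48) and POLD1 (0.38) rose among the 8 polymerase, primase and lagging strand genes, and RRM2, TK1 (0.38) and RRM1 (0.32) among the nucleotide genes. TK1 and the GINS subunit GINS4 (0.34) were each lost in 8 fits that left out 1 library, and TK1 came to 0.24 (adjusted p = 0.179) without JUN Dox replicate 3. The loading genes CDC6, ORC6 and GMNN (0.40) rose. Only CHAF1A (0.38) and CHAF1B (0.36) of the 4 chromatin genes rose, and of the control genes E2F1, CCNE2 (0.57), CLSPN (0.54) and DTL (0.30). E2F2 again overlapped between the groups, at 11.5, 10.3 and 10.6 CPM in JUN EtOH and 8.38, 9.55 and 10.6 CPM in JUN Dox (log2 -0.18 ± 0.13 SE, adjusted p = 0.389). Fewer of these calls were stable, since 14 of 29 held with any 1 library left out. The number of rising genes came to 15 without JUN EtOH replicate 2 and to 19 without JUN EtOH replicate 1 or without JUN Dox replicate 3.

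The inductions in vector and in JUN cells share no library. Both called 20 genes, which is 80% of the 25 in vector cells and 69.0% of the 29 in JUN cells, and 10 of the 44 genes rose in neither. Over all genes tested 1248 rose in both, which is 54.0% and 75.7% of the respective lists. Across the 44 genes, which are not independent, the log2 inductions had a Pearson correlation of 0.77, and 0.755 across all genes tested.

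The difference between both inductions, the interaction, passed the test for none of the 44 genes in the edgeR quasi-likelihood fit, where 0.291% of all genes tested had a larger log2 change in JUN cells and 0.826% a smaller one. None of the 44 passed with DESeq2 either, and 1 had an unadjusted p under 0.05. That gene was UHRF1, named here after its values were seen. It stood at 99.0, 81.3 and 63.2 CPM in JUN Dox, overlapping JUN EtOH, so that its log2 induction was 1.01 in vector cells and 0.31 ± 0.18 SE in JUN cells (adjusted p = 0.254). The interaction of UHRF1 was -0.69 (95% interval -1.24 to -0.14, adjusted p = 0.336, with 0.103 to 1 over the alternatives). For CDC6 the interaction was -0.26 (95% interval -0.56 to 0.03, adjusted p = 0.648), for RRM2 -0.10 (-0.40 to 0.21), for PCNA 0.07 (-0.26 to 0.40) and for MCM2 0.21 (-0.14 to 0.55). The median interaction of the 44 genes was 0.04, between -0.69 and 0.31. The interval of MCM2 reaches past its induction in either background, while those of CDC6, RRM2 and PCNA stop short of theirs.

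**Figure D3:**
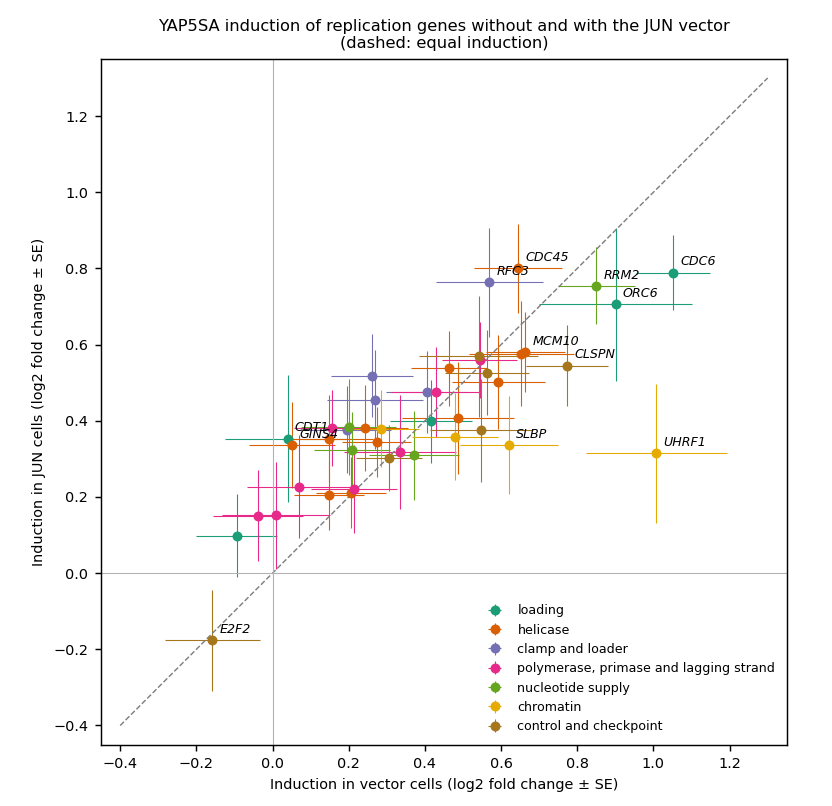
Log2 fold change ± SE on YAP5SA induction in vector cells (horizontal axis) and in JUN cells (vertical axis) for the 44 replication genes, coloured by role, with a dashed line where both are equal. Most genes lie above 0 on both axes, E2F2 is below 0 on both axes, and UHRF1 (1.01 and 0.31) is the farthest below the line.

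The fourth comparison asked what the JUN vector does in induced cells. There 17 of the 44 genes were lower in JUN Dox than in vector Dox and none was higher, where 17.2% of all genes tested were lower and 18.4% were higher. The median log2 fold change was -0.24 (0.846-fold) with a range from -0.96 to 0.11, against 0.0030 for all genes tested. In 20 of the 44 genes every JUN Dox library lay below every vector Dox library, as in 21.2% of all genes tested. Vector Dox replicate 1 stood apart from the other libraries of its group, with a median of the 44 genes of 0.53 (log2, against the mean of vector EtOH) beside 0.26 and 0.29. Without vector Dox replicate 1 and JUN Dox replicate 1, a choice made after seeing these values, the calls of RFC2, GMNN and POLA1 were lost, with log2 values of -0.26, -0.27 and -0.24. GMNN also came to -0.27 without vector Dox replicate 1 alone.

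E2F2 was lowest again, at 16.3, 21.5 and 18.1 CPM in vector Dox and 8.38, 9.55 and 10.6 CPM in JUN Dox, a fold of 0.513 (log2 -0.96 ± 0.13 SE, edgeR adjusted p = 4.91e-05). Every E2F2 value with the JUN vector, induced or not, was below every value with the empty vector. GINS2 (chr16:85709804-85723679), a GINS subunit, stood at 60.1, 41.8 and 46.5 CPM in vector Dox and 29.7, 33.5 and 29.8 CPM in JUN Dox (log2 -0.67 ± 0.12 SE, adjusted p = 0.000634). In uninduced cells GINS2 had stood at 31.2, 32.8 and 34.4 CPM with the empty vector and 21.1, 22.2 and 22.3 CPM with JUN. GINS2 in JUN Dox was thus near its level in vector EtOH. PCNA fell by 0.57 ± 0.11 SE on the log2 scale (adjusted p = 0.000983), with every JUN Dox library below every vector Dox library.

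SLBP (chr4:1694458-1714071) stood at 67.5, 66.6 and 56.9 CPM in vector EtOH, 122, 85.7 and 85.9 CPM in vector Dox, 55.9, 50.8 and 53.7 CPM in JUN EtOH and 71.3, 66.6 and 64.7 CPM in JUN Dox. Its log2 change between the Dox groups was -0.54 ± 0.13 SE (adjusted p = 0.00493), and -0.34 without vector Dox replicate 1. RFC2 stood at 70.5, 50.8 and 57.8 CPM in vector Dox and 36.6, 44.3 and 45.9 CPM in JUN Dox (log2 -0.50 ± 0.13 SE, adjusted p = 0.00753). CDT1 stood at 99.99, 123 and 124 CPM in vector Dox and 60.3, 81.9 and 105 CPM in JUN Dox, where the highest JUN library overlapped the lowest vector library. Its log2 value of -0.49 ± 0.17 SE (adjusted p = 0.032) came to -0.31 (adjusted p = 0.123) without JUN Dox replicate 1, and the call was also lost without JUN Dox replicate 2 or without vector Dox replicate 2 or 3. MCM2 was 0.73-fold (log2 -0.45 ± 0.12 SE, adjusted p = 0.00691), and CDC6 0.781-fold (log2 -0.36 ± 0.096 SE, adjusted p = 0.0101). CDC6 had not passed this test in uninduced cells, and the difference between the JUN effects is the interaction given above, which did not pass.

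RRM2 stood at nearly the same level in vector Dox and JUN Dox (log2 0.04 ± 0.10 SE, 95% interval -0.18 to 0.25, adjusted p = 0.802), and so did CCNE1 (-0.07 ± 0.13 SE, interval -0.35 to 0.22, adjusted p = 0.725). By role, 7 of 12 helicase genes fell, with MCM7 at -0.45, MCM3 at -0.39, MCM4 and MCM6 at -0.35 and MCM10 at -0.30 beside MCM2 and GINS2. CDC6, CDT1 and GMNN (-0.40) fell among the loading genes, PCNA and RFC2 among the clamp and its loader, POLA1 (-0.47) and FEN1 (-0.38) among the polymerase, primase and lagging strand genes and SLBP and CHAF1B (-0.43) among the chromatin genes. None of the 4 nucleotide genes passed, and E2F2 was the only one of the 6 control and checkpoint genes that did. In the fit to the compared libraries only, the calls of CDC6 (-0.35, adjusted p = 0.0526), MCM4 (-0.34, adjusted p = 0.0733), FEN1 (-0.37, adjusted p = 0.0604) and GMNN (-0.39, adjusted p = 0.0585) were lost, and 9 of the 17 calls held under every alternative other than the test against a log2 change of 0.5. With any 1 library left out 14 of 17 calls held, and MCM10, CDT1 and POLA1 were the exceptions. POLA1 came to -0.36 without vector Dox replicate 1 (adjusted p = 0.0699), -0.45 without vector Dox replicate 3 (adjusted p = 0.0536) and -0.35 without JUN Dox replicate 1 (adjusted p = 0.0761), and MCM10 was lost in 6 fits with values from -0.32 to -0.27.

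The JUN comparisons without and with induction share no library. Both called 14 genes lower, which is 63.6% of the 22 and 82.4% of the 17, beside 65.0% and 71.5% over all genes tested. The 14 were MCM2, MCM3, MCM4, MCM6, MCM7, GINS2, CDT1, GMNN, PCNA, RFC2, POLA1, FEN1, CHAF1B and E2F2, and 19 of the 44 genes fell in neither. Of the MCM ring subunits all but MCM5 (-0.28 with induction, edgeR adjusted p = 0.0673) were thus lower with JUN in both states. The 19 were RRM2, RRM1, TYMS, E2F1, CCNE1, CCNE2, CLSPN, DTL, UHRF1, ORC6, GINS1, GINS3, GINS4, POLA2, POLE, POLE2, PRIM1, RFC3 and CHAF1A. Of these, only TYMS (-0.23 and -0.29) and DTL (-0.19 and -0.19) had every JUN library below every vector library in both comparisons.

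Over the whole set, the median of the 44 genes relative to vector EtOH was, on the log2 scale, -0.28 ± 0.05 in JUN EtOH, 0.08 ± 0.06 in JUN Dox and 0.36 ± 0.15 in vector Dox (SD, n = 3), beside 0.01 ± 0.03 in the controls themselves. The median in JUN Dox was thus between those of JUN EtOH and vector Dox. The roles did not lie at the same height in JUN Dox, with medians from 0.32 to 0.39 for the control and checkpoint genes and from -0.06 to 0.04 for the clamp and its loader in the 3 libraries.

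**Figure D4:**
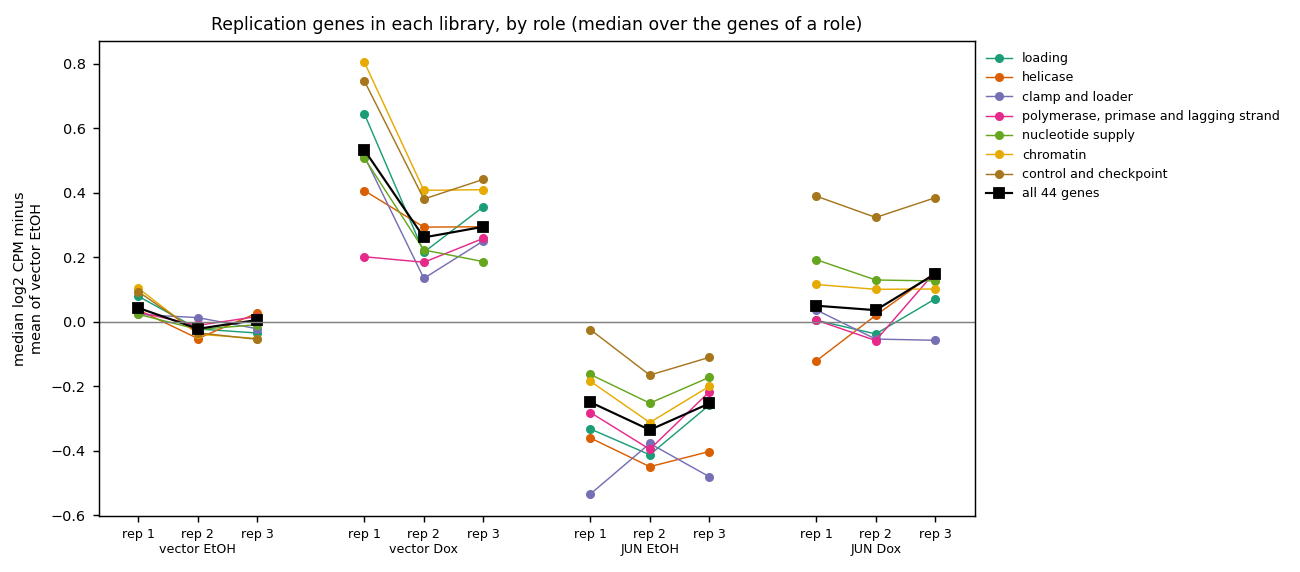
Median over the genes of each role (colours) and over all 44 genes (black squares) of log2 CPM minus the mean of vector EtOH (vertical axis) in each of the 12 libraries (horizontal axis), with lines that only join the points of a role within a group. Vector Dox replicate 1 is the highest library at 0.53 for all 44 genes, the JUN EtOH libraries lie between -0.34 and -0.25, and the JUN Dox libraries lie between 0.04 and 0.15.

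Other genes of the same pathway were read from lists drawn up with earlier results of these data known. Of 44 further replication genes, 14 (31.8%) rose and 3 fell on induction in vector cells (median log2 0.19), and 18 (40.9%) rose and 1 fell in JUN cells (median 0.28), beside 15.6% and 11.2% of all genes tested that rose. With the JUN vector 15 of them (34.1%) fell and 1 rose without induction (median -0.21), and 10 (22.7%) fell and 1 rose with it (median -0.17), beside 18.9% and 17.2% of all genes tested that fell. TIPIN, of the fork protection complex, rose in both inductions (log2 0.68 ± 0.15 SE, edgeR adjusted p = 0.00276, and 0.86 ± 0.15 SE, adjusted p = 0.00102), as DBF4, the partner of the CDC7 kinase, did in JUN cells (0.59 ± 0.11 SE, adjusted p = 0.00176). POLD4, a small subunit of polymerase delta, ran the other way, with -0.81 and -0.73 on induction and 0.47 and 0.55 with JUN, but the JUN calls of POLD4 were lost in 5 and 4 fits that left out 1 library. The genes that fell with JUN included CHTF18, of an alternative clamp loader, without induction (-0.66 ± 0.12 SE, adjusted p = 0.000627, and -0.37 with the GC correction), and DUT, which removes dUTP, with it (-0.47 ± 0.11 SE, adjusted p = 0.00487, and -0.31 without vector Dox replicate 1). TIPIN was lower with JUN in induced cells too (-0.45 ± 0.15 SE, adjusted p = 0.027), a call lost without vector Dox replicate 1 (-0.28, adjusted p = 0.143) and without JUN Dox replicate 1 (adjusted p = 0.081) or 3 (adjusted p = 0.0676).

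Upstream of the replication genes, 32 genes of RB-E2F and G1/S control were listed. On induction in vector cells 17 (53.1%) rose and 5 (15.6%) fell (median log2 0.32), beside 15.6% and 14.4% of all genes tested. In JUN cells 16 (50%) rose and 3 (9.38%) fell (median 0.35), beside 11.2% and 10.3%. With the JUN vector 3 (9.38%) rose and 10 (31.2%) fell without induction (median -0.04), beside 20.1% and 18.9% of all genes tested. With induction 5 (15.6%) rose and 10 (31.2%) fell with JUN (median -0.14), beside 18.4% and 17.2%. The D cyclins CCND2 (2.11 ± 0.16 SE, edgeR adjusted p = 1.83e-07) and CCND1 (1.46 ± 0.12 SE, adjusted p = 6.23e-07), which start RB phosphorylation, rose most in vector cells, and the inhibitors CDKN1C (-2.78 ± 0.33 SE, adjusted p = 1.69e-05) and CDKN2C (-0.76 ± 0.11 SE, adjusted p = 0.00011) fell most. In JUN cells the largest rises were those of CCND2 (0.86 ± 0.15 SE, adjusted p = 0.00106) and LIN52 (0.76 ± 0.16 SE, adjusted p = 0.00346), a subunit of the DREAM complex, and the largest falls those of CDKN1C (-3.05 ± 0.40 SE, adjusted p = 7.54e-05) and TFDP2 (-0.41 ± 0.096 SE, adjusted p = 0.00667), a dimer partner of E2F factors. CDKN1C was also the lowest of the list with JUN, at -1.41 without and -1.69 with induction.

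With the JUN vector in uninduced cells, CCND2 (0.87 ± 0.16 SE, edgeR adjusted p = 0.000809) and CDK6 (0.83 ± 0.20 SE, adjusted p = 0.00497) rose and E2F5 (-0.73 ± 0.13 SE, adjusted p = 0.000419) fell. With induction, the repressors E2F7 (0.61 ± 0.15 SE, adjusted p = 0.00652) and RBL1 (0.60 ± 0.15 SE, adjusted p = 0.00518) were higher in JUN cells and SKP2, which degrades the inhibitor p27, was lower (-1.303 ± 0.091 SE, adjusted p = 7.34e-08).

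The last list held 35 mitosis genes, whose promoters mostly hold the CHR word. On induction in vector cells 15 (42.9%) rose and 1 fell (median log2 0.22), where 15.6% of all genes tested rose. In JUN cells 18 (51.4%) rose and 1 fell (median 0.40), where 11.2% of all genes tested rose. With the JUN vector in uninduced cells 9 (25.7%) fell (median -0.16), where 18.9% of all genes tested fell. In JUN Dox 7 (20%) were lower and 2 higher than in vector Dox (median -0.09), where 17.2% of all genes tested were lower. CDC20, an activator of the anaphase-promoting complex, rose in both inductions (0.83 ± 0.12 SE in each, edgeR adjusted p = 0.00013 and 0.000225) and fell with JUN in both states (-0.62 ± 0.12 SE in each, adjusted p = 0.00117 and 0.00128). KIF23 (0.87 ± 0.10 SE, adjusted p = 1.25e-05) led in vector cells together with CDC20, and AURKB (0.82 ± 0.11 SE, adjusted p = 0.000119) followed CDC20 in JUN cells. The phosphatase CDC25B fell on both inductions (-1.39 and -0.77). With JUN, PTTG1 fell in both states (-0.68 and -0.58), the second call being lost without vector Dox replicate 1 (-0.29, adjusted p = 0.082), and CENPE (0.52 ± 0.16 SE, adjusted p = 0.0175) and CDC25B (0.43 ± 0.11 SE, adjusted p = 0.00603) were higher in induced cells. The call of CENPE was lost without vector Dox replicate 1 (0.42, adjusted p = 0.0567) and without JUN Dox replicate 1 (0.36, adjusted p = 0.0862).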

How the data were processed

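RNA from 12 MCF10A libraries was sequenced by the authors, who deposited raw counts of reads per Entrez gene, with no normalization. Reads were trimmed with Cutadapt 4.2 and aligned to hg19 with Bowtie2 2.3.5.1 according to the submitters' processing notes, and assigned to genes with countOverlaps (GenomicRanges). The gene annotation and the use of strand are not given in the sources used here. Bowtie2 does not split reads over introns, so junction reads are largely lost.

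From these counts, edgeR 4.0.16 under R 4.3.3 kept 14775 genes (filterByExpr by group, minimum count 10, minimum total 15), scaled libraries by TMM and fitted 1 robust quasi-likelihood model to all 12 libraries (biological coefficient of variation 12.5%). Benjamini-Hochberg adjustment ran over the 14775 genes, with calls at adjusted p under 0.05. The contrasts were Dox against EtOH in vector and in JUN cells, JUN against vector in EtOH and in Dox, and the interaction (induction with JUN minus induction with empty vector, in log2). CPM used TMM-scaled library sizes. Each SE belongs to a log2 fold change. The fit was tested on simulated data.

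The 44 genes and all lists were chosen with earlier results of these data known, so lists are described by counts and medians beside those of all genes tested. Values are given in every library for CDC6, MCM2, PCNA, E2F1, CCNE1 and RRM2 and for the 4 called genes with the largest change in each direction and comparison, and for the other lists the 2 such genes are named, except for some that are not reported here. Same-numbered libraries did not deviate together in every pair (correlations -0.26 to 0.47), so replicate numbers were not used as pairs. No replicates were duplicates. Gene positions are from GENCODE v44lift37 on GRCh37, 1-based. Alternatives were DESeq2 1.42.0, other size factors and filters, a fit to the compared libraries only, a GC correction, a replicate block, a test against a log2 change of 0.5 and leaving out each library.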

Additional observations from a re-analysis of the deposited data

Results flagged for a closer look

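None of the 44 replication genes met a criterion for a closer look. Among the upstream control genes listed for comparison, 3 had a log2 induction that differed between vector and JUN cells by the interaction test of edgeR. CCND1 rose by 1.46 in vector cells and its interaction was -0.99 ± 0.17 SE (adjusted p = 0.00879), with levels of 583, 731 and 679 CPM in vector Dox and 281, 322 and 316 CPM in JUN Dox. CCND2 rose by 2.11 in vector cells and by 0.86 in JUN cells, an interaction of -1.25 ± 0.22 SE (adjusted p = 0.00967). It stood at 34.5, 48.7 and 44.5 CPM in vector Dox and 26.0, 39.0 and 33.0 CPM in JUN Dox, which overlapped. Without induction CCND2 was already higher with JUN than with the empty vector (log2 0.87 ± 0.16 SE, adjusted p = 0.000809). SKP2 had an interaction of -0.79 ± 0.13 SE (adjusted p = 0.00479), with 141, 145 and 141 CPM in vector Dox and 62.3, 60.2 and 50.6 CPM in JUN Dox.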

How the results depend on the processing

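No called gene changed direction under any of the 23 alternatives (22 for the interaction). DESeq2, other size factors, other filters and a GC correction left every count of called replication genes within 1.5 times its value. With the replicate block, 25 of the 44 genes rose on induction in vector cells and 32 in JUN cells, and 23 and 19 fell with JUN without and with induction. The block moved no count by over 1.5 times. Fitted on the compared libraries only, 10 genes instead of 17 were lower with JUN in induced cells, from a fit with fewer samples. Against a log2 change of at least 0.5, 4 of 25 genes passed on induction in vector cells, 1 of 29 in JUN cells, 1 of 22 with JUN and 1 of 17 with JUN in induced cells. As a share of the 44 genes, this was close to that of all genes tested in vector cells. It was below that share in the other comparisons, by the counts over all genes given below. With 1 library left out, the rising genes numbered 19 to 25 in vector cells and 15 to 33 in JUN cells, and the falling genes 18 to 25 and 15 to 19. The median log2 induction in vector cells then ran from 0.265 to 0.433 and the median interaction from -0.00366, where its sign turned without vector Dox replicate 2, to 0.115. Without replicate 1 of both Dox groups, an alternative added after seeing the data, they were 0.252 and 0.116. The cause of these shifts was not tested.

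Over all 14775 genes tested, the count called came to 1170, 1359, 624, 1353 and 60 against a log2 change of 0.5, instead of 4443 (vector cells induced), 5766 (JUN uninduced), 3168 (JUN cells induced), 5267 (JUN against vector, both induced) and 165 (interaction). The interaction gave 340 genes with DESeq2, 97 without vector EtOH replicate 3, 107 and 99 without JUN EtOH replicate 1 and 2, and 478 without replicate 1 of both Dox groups. The count for JUN in induced cells was 3439 on the compared libraries only, that for JUN was 3823 without JUN EtOH replicate 1, and that for induction in JUN cells was 2082 without JUN EtOH replicate 2. With 3 libraries a group, small changes are not detectable for most of these genes.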
